A study of Mus musculus with 23 samples.

Results

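The products of 10 genes that break down heme and handle iron were followed at the mRNA level in scraped colon mucosa: heme oxygenases 1 and 2 (Hmox1, Hmox2), biliverdin reductases A and B (Blvra, Blvrb), ferritin heavy chain (Fth1), transferrin receptor (Tfrc), the divalent metal transporter Slc11a2, duodenal cytochrome b (Cybrd1), ferroportin (Slc40a1) and the heme exporter Flvcr1. The genes were named by function, and each was represented by the probe set annotated to it alone that had the highest mean over all 23 arrays. Of the 10 genes, 9 had a probe set of their own, among 18820 genes measured. Hmox2 was covered only by a probe set that also matches Cdip1, so that the signal could not be assigned to Hmox2.

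Mice lacking the nuclear receptor PPARα (KO mice, strain 129S4/SvJae-Pparatm1Gonz/J) and wild-type mice (WT, strain 129S1/SvImJ) were compared on 2 diets, to ask whether PPARα takes part in the response of the colon to dietary heme. The 4 groups were heme-fed KO mice (n = 6), KO mice on the control diet (n = 6), heme-fed WT mice (n = 6) and WT mice on the control diet (n = 5, since the study left out 1 array for its quality). All mice were males of 7 to 9 weeks at the start, and all received for 14 days a purified diet with 40% of energy as fat and a low calcium content of 30 µmol/g, to which 0.5 µmol heme/g was added in the heme groups. Scrapings of the proximal and distal colon were pooled per mouse, and 100 ng of RNA was hybridised to 1 whole-transcript array per mouse. The KO allele was present in the whole animal, and the genotypes were of different substrains. Effects of genotype and of substrain therefore cannot be told apart wherever KO and WT mice are compared.

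Heme that enters a cell is opened by heme oxygenase to biliverdin, carbon monoxide and ferrous iron, and the biliverdin reductases turn biliverdin into bilirubin. The iron is stored in ferritin or leaves the cell through ferroportin, whereas heme itself can leave through Flvcr1. Iron enters as transferrin-bound iron through the transferrin receptor, or as ferrous iron through Slc11a2 after reduction by Cybrd1. In mammalian cells iron regulatory proteins bind iron responsive elements in several of these mRNAs, which blocks translation of ferritin and ferroportin and protects the transferrin receptor mRNA from decay. Mammalian Hmox1 is under transcriptional control of the activator NRF2 and of the heme-binding repressor BACH1, which both act on antioxidant response elements. Ferritin is largely set at the level of translation, which an mRNA measurement does not show.

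RefSeq start site windows (assembly GRCm38.p6, 250 bases before to 50 bases after an annotated start) were at hand for 7 of the 10 genes, in 12 windows, with Hmox1, Slc11a2 and Slc40a1 not among them. They were searched for the core of the antioxidant response element (TGACNNNGC, both strands), the core of the hypoxia response element (ACGTG, both strands) and the loop of the iron responsive element (CAGTGN, sense strand). The antioxidant core was found in Blvra and Flvcr1 and the hypoxia core in Tfrc and Blvrb, without overlap between motifs, and the loop in none of the 12 windows. Of all 32851 windows 12.4%, 19.6% and 34.6% hold these motifs, and 7.08% hold the loop in the 50 bases after the start. That the loop was not found says only that its letters are not in these windows. The stretches with a match are printed 5′ to 3′ on the gene's strand, with the matched letters in capitals and 16 bases on either side, because these were the only members with a match to a response element.
Blvra: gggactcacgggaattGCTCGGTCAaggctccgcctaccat
Flvcr1: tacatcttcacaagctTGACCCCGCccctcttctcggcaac
Tfrc: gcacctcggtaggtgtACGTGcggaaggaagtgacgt
Blvrb: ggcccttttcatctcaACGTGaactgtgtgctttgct
The Blvra stretch lies at chr2:127070592-127070632 on the plus strand, with the match on the opposite strand starting 49 bases before the start site. The Flvcr1 stretch lies at chr1:191026317-191026357 on the minus strand, with its match 151 bases before the start. Tfrc has its stretch at chr16:32608878-32608914 on the plus strand, and the match begins 2 bases before the start of one window and 228 bases before that of the other. For Blvrb the stretch is at chr7:27452279-27452315 on the plus strand, 123 bases before the second of its 2 starts.

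Expression is given as log2 values of the deposited normalised signal, and a difference of log2 values is a log2 fold change. A linear signal is the value before the logarithm. Calls needed an adjusted p under 0.01 (limma, Benjamini-Hochberg over all 18820 genes) and a mean linear signal above 20 in a group compared. Rises and falls named as such passed this rule. Heme changed 18.4% of all genes in KO mice and 17.9% in WT mice by this rule, while 0.234% differed between KO and WT mice on the heme diet and 0.0531% on the control diet. The difference of the heme effects between the genotypes was called for 0.0106% of genes. With the smooth muscle markers as a covariate 1310 genes were called on heme in WT mice, against 3367 without it, and 3043 against 3469 in KO mice. The 44 genes called between the genotypes on heme became 28 without KO heme replicate 4 and 69 without KO heme replicate 1. Ppara, the disrupted gene, had mean log2 values of 7.63 and 8.26 in KO mice on the heme and control diet, and of 8.69 and 8.95 in WT mice on these diets, with all KO mice below all WT mice on either diet. Whether its probes lie in the disrupted exon was not determined. All 12 colonocyte markers had a mean signal above 20 in every group. The sum of 12 smooth muscle markers was 3095 to 5339 in heme-fed KO mice and 3187 to 8113 in KO control mice, against 3404 to 5235 in heme-fed WT mice and 5805 to 16642 in WT control mice. Of these markers 1 was lower on heme in KO mice and 10 were lower in WT mice. Of 9 proliferation markers measured 8 were higher on heme in either genotype (median effect on the log2 scale 0.74 in KO and 0.90 in WT mice).

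Of the 9 genes, 2 were called on heme in KO mice (18.4% of all genes were), 1 higher and 1 lower (9.23% and 9.2% of all genes). In WT mice 2 were called (17.9% of all genes), both of them higher and none lower (9.6% and 8.29% of all genes). Hmox1 was strongly induced in both genotypes. Slc11a2 fell in KO mice and Slc40a1 rose in WT mice, and both calls were lost in several alternative settings. Blvra, Blvrb, Fth1, Tfrc, Cybrd1 and Flvcr1 did not pass the test in either genotype. At an unadjusted p under 0.05 there were 4 of 9 genes in KO mice and 5 of 9 in WT mice, against 37.9% and 37.2% of all genes.

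**Figure D1:**
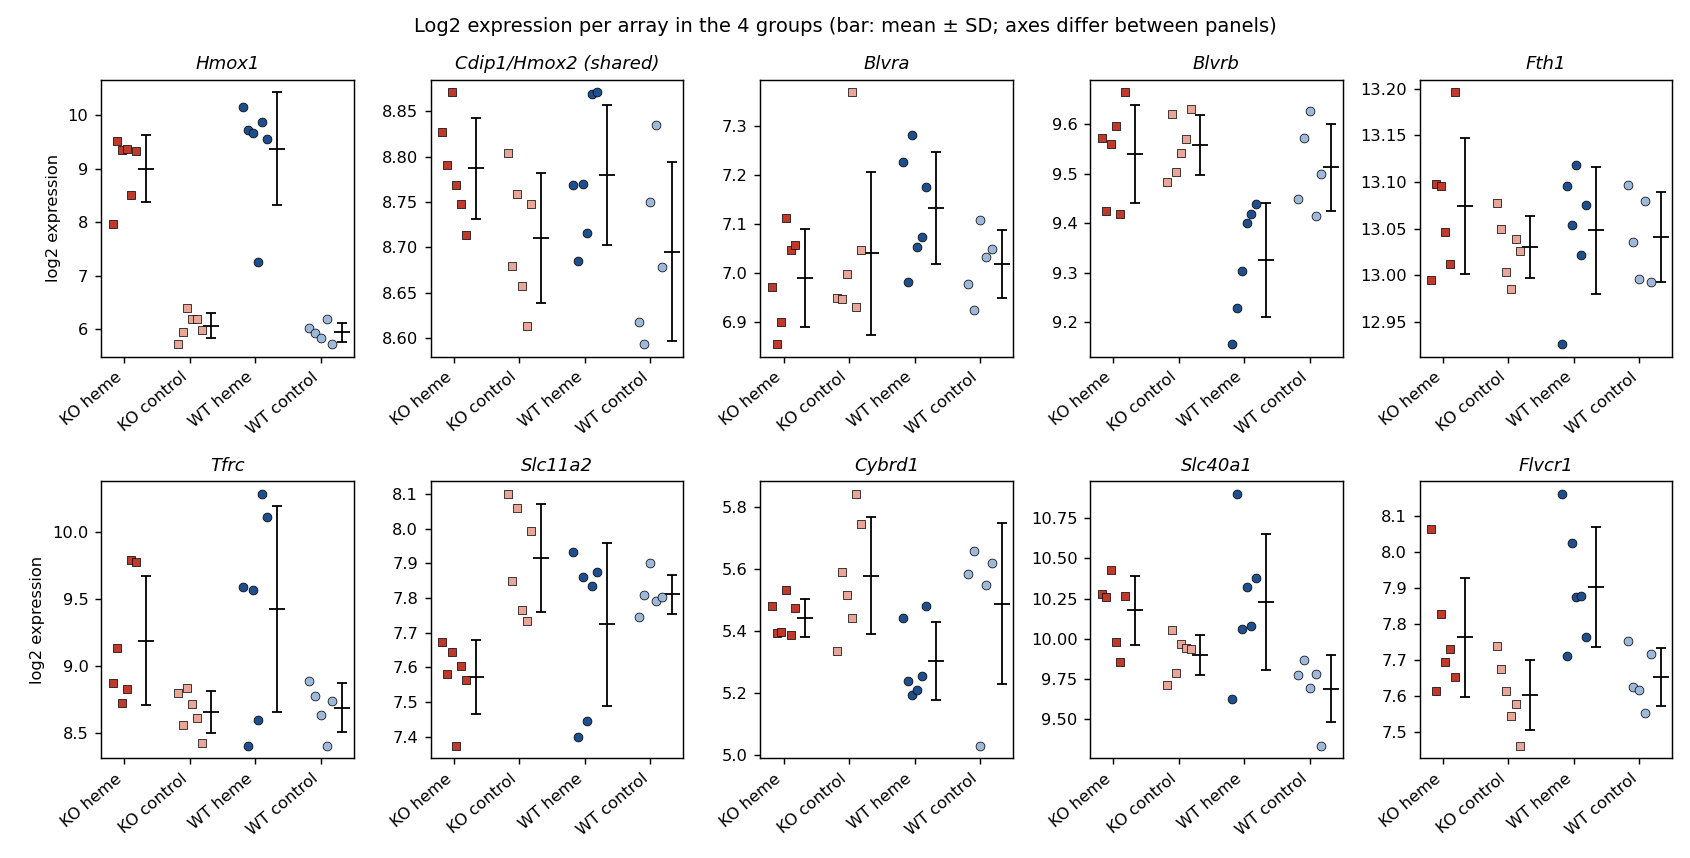
Log2 expression (vertical axes, which differ between panels) of 9 genes and of the probe set shared by Cdip1 and Hmox2, 1 point per array, in KO mice on heme and control diet (squares) and WT mice on heme and control diet (circles), with mean ± SD beside each group. Hmox1 lies above 7.2 in all 12 heme-fed mice and below 6.5 in all 11 control mice, whereas Fth1 and Blvra overlap in all 4 groups.

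Hmox1, the inducible heme oxygenase, had a linear signal of 249 (lowest), 649 (median) and 730.0 (highest) in heme-fed KO mice, against 53.0, 68.1 and 84.5 in KO mice on the control diet. In heme-fed WT mice the lowest, median and highest signals were 154, 828.85 and 1143, against 65.2, 61.2, 57.2, 73.5 and 52.9 in the 5 WT control mice. Every heme-fed mouse was above every control mouse of its genotype. The log2 fold change was 2.93 in KO mice (SE 0.342, 95% CI 2.22 to 3.64, adjusted p = 1.618e-06 from limma), a 7.63-fold higher level, and 3.43 in WT mice (SE 0.359, 95% CI 2.69 to 4.17, adjusted p = 3.964e-07), a 10.8-fold higher level. Ordered by the size of the rise, Hmox1 was number 5 of 18820 genes in KO mice and number 3 in WT mice. The exact permutation tests gave the smallest p that the group sizes allow, 0.00216 for 6 against 6 KO mice and 0.00433 for 6 against 5 WT mice (two-sided). Scraped mucosa is a mixture, so more cells of a type and more RNA per cell cannot be told apart.

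Within the heme groups Hmox1 was uneven. In KO mice 4 of the 6 heme-fed animals had log2 values of 9.33 to 9.51, and replicates 1 and 5 had 7.96 and 8.51. In WT mice 5 of the 6 had 9.55 to 10.16, and replicate 4 had 7.27. Without WT heme replicate 4 the log2 fold change in WT mice was 3.85 (adjusted p = 1.12e-10 from limma). The heme effect in KO minus that in WT mice was -0.50 (95% CI -1.52 to 0.53, adjusted p = 0.898), and -0.92 (adjusted p = 0.513) without that array, so a difference between the genotypes was not shown and a moderate one in either direction is inside the interval. On the heme diet KO minus WT was -0.37 (95% CI -1.08 to 0.34, adjusted p = 0.726), with -0.79 (adjusted p = 0.0759) without WT heme replicate 4 and -0.16 (adjusted p = 0.894) without KO heme replicate 1. On the control diet it was 0.13 (95% CI -0.61 to 0.87, adjusted p = 0.997). Diet accounted for 86.9% of the variance of Hmox1 over the 23 arrays, genotype for 0.1% and the interaction for 0.5%, while 12% lay between mice of the same group (shares need not add up, since the groups differ in size).

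The genes with the pattern most like Hmox1 over the 23 arrays, among 14391 genes with a signal above 20, were Slc7a11 (Pearson r = 0.976), Gclc (0.971) and Srxn1 (0.965). These coefficients include the difference between the diets, and for deviations from the group means they were 0.789, 0.77 and 0.663 (n = 23). All 3 belong to a list of 12 NRF2 target genes, of which 11 were measured. On heme 10 of the 11 rose in KO mice and 11 in WT mice and none fell. Their median effects were 1.25 and 1.26 on the log2 scale, against -0.0082 and -0.0096 over all genes. The cystine transporter Slc7a11 was 6.26-fold higher on heme in KO and 8.44-fold higher in WT mice, Me1, which makes NADPH, 4.57-fold and 4.42-fold, Nqo1, a quinone reductase, 2.73-fold and 3.59-fold, and Gclc, of glutathione synthesis, 2.86-fold and 3.39-fold. Nqo1 and Gclc had been singled out by the study on these arrays, which makes the list no independent evidence of a direction. None of the 11 had a heme effect that was called different between the genotypes. The study reports from these arrays a significant interaction for Nqo1 and Gclc, with less induction in KO mice. Here the difference of the heme effects had that direction. It was -0.40 for Nqo1 (SE 0.169, adjusted p = 0.687 from limma) and -0.25 for Gclc (SE 0.157, adjusted p = 0.814). The adjustment here spans all 18820 genes and the study tested these genes singly, so the results are not on equal terms. For Gclc the difference was not large beside its SE, and the adjustment alone was not shown to account for the missing call.

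The mean log2 level of the 11 NRF2 target genes in each mouse ran from 9.27 to 9.67 in heme-fed KO mice, 8.27 to 8.44 in KO control mice, 9.37 to 9.97 in heme-fed WT mice and 8.29 to 8.44 in WT control mice. The mouse lowest in Hmox1 was also lowest in this mean in both heme groups (KO replicate 1 at 9.27 and WT replicate 4 at 9.37). For deviations from the group means the correlation was r = 0.84 (Spearman rho 0.54, n = 23), 0.90 among the 12 heme-fed mice and 0.10 among the 11 control mice. It was 0.41 without the 2 arrays whose Hmox1 deviation lay farthest from the median. The relation rests in large part on those 2 arrays.

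**Figure D2:**
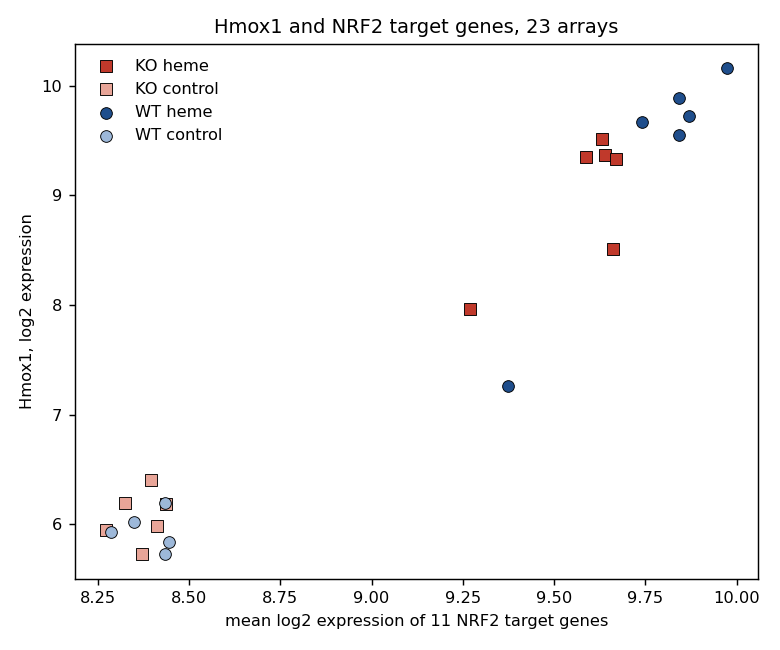
Log2 expression of Hmox1 (vertical axis) against the mean log2 expression of 11 NRF2 target genes (horizontal axis), 1 point per array, for KO mice (squares) and WT mice (circles) on heme (dark) and control diet (light). All control arrays lie below 8.5 on the horizontal axis, and heme-fed KO replicate 1 (9.27) and WT replicate 4 (9.37) are the lowest of their groups on both axes.

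The probe set shared by Cdip1 and Hmox2, the constitutive heme oxygenase, had log2 values of 8.71 to 8.87 in heme-fed KO mice and 8.61 to 8.80 in KO control mice, and of 8.69 to 8.87 in heme-fed WT mice and 8.59 to 8.83 in WT control mice. Its log2 fold change on heme was 0.08 in KO mice (adjusted p = 0.264 from limma) and 0.09 in WT mice (adjusted p = 0.238), and the groups overlapped.

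Blvra, which reduces biliverdin IXα, showed log2 means of 6.99 ± 0.10 in heme-fed and 7.04 ± 0.17 in control KO mice (SD, n = 6 each), and of 7.13 ± 0.12 (SD, n = 6) in heme-fed and 7.02 ± 0.07 (SD, n = 5) in control WT mice. The heme effect was -0.05 in KO mice (95% CI -0.19 to 0.09, adjusted p = 0.653 from limma) and 0.11 in WT mice (95% CI -0.04 to 0.26, adjusted p = 0.273). The intervals leave room for changes of at most 0.26 on the log2 scale. Without KO control replicate 4, the highest mouse for this gene at 7.37, the effect in KO mice was 0.02.

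Blvrb, the second biliverdin reductase, also known as flavin reductase, had lowest, median and highest log2 values of 9.42, 9.57 and 9.67 in heme-fed KO mice, against 9.48, 9.56 and 9.63 in KO control mice. In heme-fed WT mice they were 9.15, 9.35 and 9.44, against 9.45, 9.57, 9.63, 9.42 and 9.50 in WT control mice. Of the 6 heme-fed WT mice 4 were below all WT control mice and 2 overlapped with them. Of the 6 heme-fed KO mice 1 was above and 2 were below all KO control mice. The heme effect was -0.02 in KO mice (95% CI -0.14 to 0.10, adjusted p = 0.848 from limma) and -0.19 in WT mice (SE 0.059, adjusted p = 0.0194; exact permutation test, p = 0.013), which did not pass the threshold. On the heme diet Blvrb had the smallest p of the 9 genes between the genotypes, with KO minus WT at 0.22 (SE 0.0563, 95% CI 0.10 to 0.33, adjusted p = 0.0755 from limma; exact permutation test, p = 0.0108), and all 6 KO mice above the WT mean. The difference of the heme effects was 0.17 (95% CI -8.642e-05 to 0.34, adjusted p = 0.736). Genotype accounted for 27.8% of the variance of Blvrb and diet for 15.3%.

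Fth1, the ferroxidase subunit of ferritin, varied little, with linear signals of 8163 to 9385 in heme-fed KO mice, 8107 to 8639.5 in KO control mice, 7785 to 8888 in heme-fed WT mice and 8153 to 8764 in WT control mice. All 4 groups overlapped. Only 14 genes had a higher mean than this probe set (log2 13.05, against 14.01 for the brightest gene). Whether so bright a signal can still show a rise was not tested. On heme the log2 fold change was 0.04 in KO mice (95% CI -0.04 to 0.13, adjusted p = 0.484 from limma) and 0.01 in WT mice (95% CI -0.08 to 0.10, adjusted p = 0.928). A second, much dimmer probe set of Fth1 gave 0.14 in KO and 0.14 in WT mice (adjusted p = 0.19 and 0.209). The light chain gene Ftl1, outside the 10 genes, rose by 0.32 in KO mice (SE 0.0828, adjusted p = 0.00557) and 0.33 in WT mice (SE 0.0868, adjusted p = 0.00651).

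Tfrc, the receptor that takes up transferrin-bound iron, had lowest, median and highest log2 values of 8.73, 9.00 and 9.79 in heme-fed KO mice, against 8.42, 8.66 and 8.84 in KO control mice. In the heme-fed WT mice the values were 8.40, 9.58 and 10.28, against 8.88, 8.78, 8.63, 8.40 and 8.74 in WT control mice. In each genotype 4 of the 6 heme-fed mice were above all control mice, and the other 2 lay in the control range. In WT mice these were replicates 2 and 4, with 8.40 and 8.60. The heme effect was 0.53 in KO mice (SE 0.255, 95% CI 0.0035 to 1.06, adjusted p = 0.129 from limma; exact permutation test, p = 0.013) and 0.74 in WT mice (SE 0.268, 95% CI 0.18 to 1.29, adjusted p = 0.0424; exact permutation test, p = 0.0823). Without WT heme replicate 2 the effect in WT mice was 0.94 and passed the threshold (adjusted p = 0.00537 from limma). The difference of the heme effects was -0.21 (95% CI -0.97 to 0.56, adjusted p = 0.956), and ran from -0.41 without WT heme replicate 2 to -0.03 without WT heme replicate 5.

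Slc11a2, which encodes DMT1, the carrier of ferrous iron, had log2 values of 7.37 (lowest), 7.59 (median) and 7.67 (highest) in heme-fed KO mice, against 7.73, 7.92 and 8.10 in KO control mice. In heme-fed WT mice they were 7.40, 7.85 and 7.93, against 7.75, 7.81, 7.90, 7.79 and 7.80 in WT control mice. All 6 heme-fed KO mice were below all 6 KO control mice, whereas in WT mice replicates 2 and 4 on heme (7.40 and 7.44) were below the control mice and the other 4 were within or just above their range. Slc11a2 fell by 0.34 on the log2 scale in KO mice (SE 0.0875, 95% CI -0.53 to -0.16, adjusted p = 0.00448 from limma; exact permutation test, p = 0.00216, the smallest possible). In WT mice the effect was -0.09 (95% CI -0.28 to 0.10, adjusted p = 0.554; exact permutation test, p = 0.519). The difference of the heme effects was -0.26 (95% CI -0.52 to 0.0043, adjusted p = 0.736), so that the heme response was not shown to differ between the genotypes. The call in KO mice was lost without KO control replicate 1, 3 or 6 or KO heme replicate 4 (-0.30 to -0.33, adjusted p of up to 0.0148) and also with the median of each array set to 0 (-0.30, adjusted p = 0.0139) or the smooth muscle markers as a covariate (-0.32, adjusted p = 0.0159).

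Cybrd1, the ferric reductase first described in the duodenum, was dim, with mean signals of 43.6 in heme-fed KO mice and 48.2 in KO control mice, and of 39.6 in heme-fed and 45.5 in control WT mice. Its heme effect was -0.14 in KO mice (95% CI -0.33 to 0.06, adjusted p = 0.316 from limma) and -0.18 in WT mice (95% CI -0.39 to 0.02, adjusted p = 0.178), with overlapping groups. Without WT control replicate 3, at a log2 value of 5.03 the lowest of all 23 mice, the effect in WT mice was -0.30 and passed the threshold (adjusted p = 0.00725). That array was also the lowest of all 23 in the mean log2 level of the macrophage markers. For deviations from the group means Cybrd1 had r = 0.731 with fibroblast, 0.722 with endothelial and 0.556 with macrophage markers. These coefficients include that array. The part of fibroblast and endothelial content in the effect was not tested. Of the 3 uptake genes 1 was called lower in KO mice (9.2% of all genes were), a call lost in several settings, and 0 were called in WT mice.

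**Figure D3:**
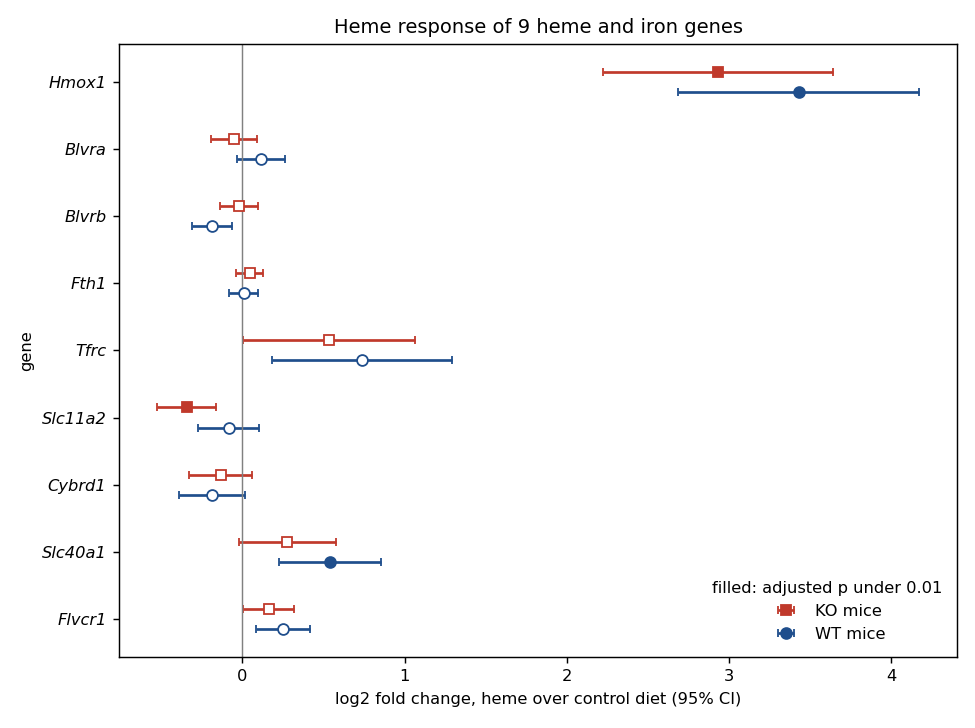
Heme effect as log2 fold change against the control diet (horizontal axis, with 95% confidence interval) of the 9 genes in KO mice (squares) and WT mice (circles), with filled symbols where the adjusted p was under 0.01. Hmox1 lies near 3 in both genotypes and all other genes between -0.34 and 0.74.

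Slc40a1, the only known exporter of ferrous iron from mammalian cells, had lowest, median and highest log2 values of 9.86, 10.26 and 10.43 in heme-fed KO mice, against 9.71, 9.94 and 10.05 in KO control mice. In heme-fed WT mice they were 9.63, 10.20 and 10.90, against 9.77, 9.87, 9.69, 9.78 and 9.34 in WT control mice. In KO mice 4 of 6 heme-fed animals were above all control animals, and in WT mice 5 of 6, with replicate 1 (9.63) inside the control range. The heme effect was 0.28 in KO mice (SE 0.144, 95% CI -0.02 to 0.58, adjusted p = 0.168 from limma; exact permutation test, p = 0.0281) and 0.54 in WT mice (SE 0.152, 95% CI 0.22 to 0.85, adjusted p = 0.00969; exact permutation test, p = 0.0216). The difference of the heme effects was -0.26 (95% CI -0.70 to 0.17, adjusted p = 0.857). The WT value sat at the edge of the threshold, and leaving out any 1 of 20 of the 23 arrays lost the call (0.40 to 0.58, adjusted p of up to 0.0369), the exceptions being WT heme replicate 1 and KO heme replicates 3 and 5. With the smooth muscle markers as a covariate it was 0.55 (adjusted p = 0.0815).

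Macrophages that recycle red cells also express Slc40a1 and Hmox1. Of 12 macrophage markers 9 had a mean signal above 20, and Spic and Vsig4, which mark resident and iron-recycling cells, were not above it in any group. The summed signal of all 12 macrophage markers was 1168 to 2364 in heme-fed KO mice and 1180 to 2122 in KO control mice, and 1103 to 1397 in heme-fed WT mice and 789 to 1492 in WT control mice. Of the 12 markers 1 was higher and 1 lower on heme in KO mice, and none was higher and 1 lower in WT mice. Between the genotypes Cd14 was called higher in KO mice on heme (0.234% of all genes were called), and none on the control diet. KO minus WT was positive for 12 markers on heme (median 0.22) and for 11 on the control diet (median 0.24). With the mean level of the 12 macrophage markers as a covariate the calls of Hmox1, Slc11a2 and Slc40a1 were kept. Since Spic and Vsig4 were dim, this mean cannot follow the iron-recycling cells, and their part in the heme effects was not tested.

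Flvcr1, which exports heme from cells, had lowest, median and highest log2 values of 7.61, 7.71 and 8.06 in heme-fed KO mice, against 7.46, 7.59 and 7.74 in KO control mice. In heme-fed WT mice the values were 7.71, 7.88 and 8.16, against 7.75, 7.62, 7.62, 7.55 and 7.72 in WT control mice. Of the heme-fed mice 2 of 6 KO and 5 of 6 WT mice were above all control mice of their genotype. The heme effect was 0.16 in KO mice (95% CI 0.0030 to 0.32, adjusted p = 0.124 from limma; exact permutation test, p = 0.0541) and 0.25 in WT mice (SE 0.0803, 95% CI 0.08 to 0.42, adjusted p = 0.0226; exact permutation test, p = 0.013), and passed the threshold in neither genotype. In WT mice it did pass in 2 fits with a single array left out (adjusted p down to 0.00931 from limma) and with the replicate number as a block. It also passed at the looser threshold of an adjusted p under 0.05, and not every setting is named here. A second, dimmer probe set of Flvcr1 gave 0.12 in KO mice (adjusted p = 0.237) and 0.36 in WT mice (SE 0.0724, adjusted p = 6.688e-04 from limma over all probe sets; exact permutation test, p = 0.00433, the smallest possible), so the probe sets of this gene disagree on the call in WT mice. For that probe set KO minus WT on heme was -0.27 (adjusted p = 0.0607) and the difference of the heme effects -0.25 (adjusted p = 0.662).

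Between the genotypes none of the 9 genes was called on the heme diet (0.234% of all genes were), on the control diet (0.0531%) or for the difference of the heme effects (0.0106%). At an unadjusted p under 0.05 there was 1 gene of 9 on the heme diet (Blvrb) and none on the control diet or for the difference of the heme effects, against 12.2%, 5.74% and 6.75% of all genes. On the control diet KO minus WT ran from -0.05 (Flvcr1) to 0.21 (Slc40a1). For Slc40a1 the 95% CI was -0.10 to 0.52, and all 6 KO control mice were above the WT control mean. For 8 of the 9 genes, all but Hmox1, the largest share of the variance lay between mice of a group, with 44.0% for Blvrb, 52.6% for Flvcr1, 55.5% for Slc11a2, 57.0% for Slc40a1, 63.8% for Tfrc, 69.8% for Cybrd1, 80.2% for Blvra and 91.3% for Fth1.

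Over 36 pairs of the 9 genes the correlation of deviations from the group means ran from -0.51 to 0.60 with a median of -0.015 (n = 23 arrays, which share their preparation and normalisation). Tfrc and Slc11a2 had the highest, r = 0.60 (0.30 without the 2 farthest arrays), followed by Fth1 and Slc40a1 at 0.58 (0.48). The 2 farthest arrays were those farthest from the median in the first gene named of a pair, or in the gene set against a marker mean. An array extreme only in the second was kept. Slc11a2 and Slc40a1 had the lowest, -0.51 (-0.29), and Tfrc and Slc40a1 had -0.49 (-0.26). WT heme replicates 2 and 4 contribute to this, with the lowest Tfrc and Slc11a2 of their group, and replicate 2 had the highest Slc40a1 of all 23 mice at 10.90. With the mean of the proliferation markers, the correlation of deviations was 0.67 for Slc11a2 (0.58 without the 2 farthest arrays), 0.47 (0.23) for Flvcr1, 0.41 (0.19) for Tfrc and 0.32 (0.43) for Blvra. It was -0.59 (-0.49) for Fth1, -0.50 (-0.40) for Slc40a1, -0.39 (-0.19) for Blvrb and -0.25 (-0.09) for Cybrd1, and for Hmox1 0.27, and near 0 without these arrays. All these coefficients pool the diets. Among the 12 heme-fed and the 11 control mice Tfrc with Slc11a2 had 0.71 and 0.15. With the proliferation markers Fth1 had -0.80 and -0.04, Cybrd1 0.41 and -0.75, and Slc11a2 0.68 and 0.65. The sum of the markers was 3106 to 4654 in heme-fed KO mice and 1845 to 2903 in KO control mice, and 3223 to 5494 in heme-fed WT mice and 2236 to 2983 in WT control mice, and its part in the heme effects was not tested.

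**Figure D4:**
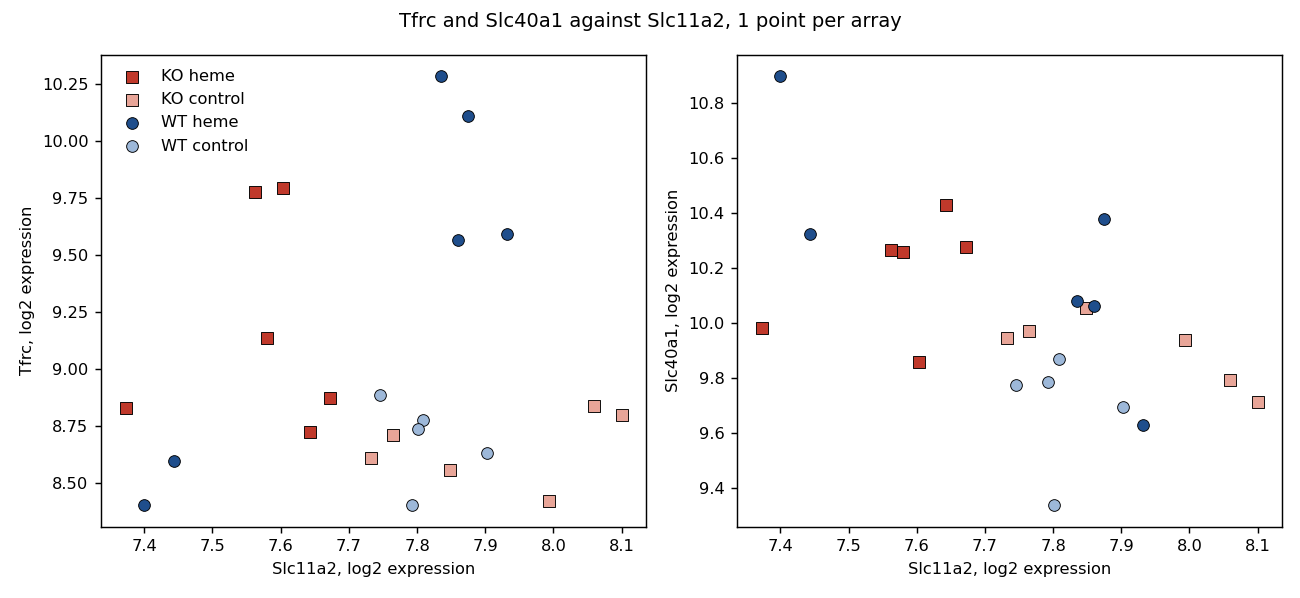
Log2 expression of Tfrc (left) and Slc40a1 (right) on the vertical axes against Slc11a2 (horizontal axes), 1 point per array, for KO mice (squares) and WT mice (circles) on heme (dark) and control diet (light). The 2 heme-fed WT mice with Slc11a2 at 7.40 and 7.44 have the lowest Tfrc of their group, 8.40 and 8.60.

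Around these genes, 54 further genes of heme and iron handling were listed, of which 51 were measured. On heme 12 rose and 5 fell in KO mice (33.3% called), and 12 rose and 8 fell in WT mice (39.2% called), with medians of -0.0019 and -0.0107 and none called between the genotypes or for the difference of the heme effects. The rise of some list members stood beside the fall of others. Over all genes the share called was 18.4% and 17.9%. By direction 9.23% of all genes rose and 9.2% fell in KO mice, and 9.6% rose and 8.29% fell in WT mice, which also stand beside the counts of each list below. These shares are not on equal terms, since 46 of the 51 list genes had a signal above 20, against 14391 of all 18820 genes. Dimmer genes could not be called. With only the 14391 genes fitted, 3695 were called in KO mice and 3563 in WT mice. The lists were also chosen with earlier results of these data known.

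Among 12 genes of heme transport and scavenging, 3 rose and 1 fell in KO mice, and 2 rose and 2 fell in WT mice. Slc46a1, a proton-coupled folate transporter that was also described as an intestinal heme carrier, fell by 1.28 on the log2 scale in KO mice (adjusted p = 2.5e-06 from limma) and by 1.42 in WT mice (adjusted p = 1.435e-06), a 2.44-fold and 2.67-fold lower level. The porphyrin exporter Abcg2 rose by 0.64 in KO and 0.65 in WT mice, and the porphyrin transporter Abcb6 by 0.47 and 0.48. Hebp2, of a heme-binding family, rose in KO mice (0.26, adjusted p = 0.00804) and had 0.14 (adjusted p = 0.187) in WT mice.

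Of 12 genes of iron uptake and iron reduction 2 rose and 2 fell in KO mice, and 1 rose and 4 fell in WT mice. Transferrin (Trf) rose by 0.74 in KO and 0.76 in WT mice, and the zinc and iron importer Slc39a14 fell by 0.36 and 0.41. The metalloreductase Steap4 fell by 1.21 in WT mice (adjusted p = 0.00263) and had -0.85 in KO mice (adjusted p = 0.0212). Lcn2, which binds bacterial siderophores, rose by 0.85 in KO mice (adjusted p = 0.00247) and had -0.02 in WT mice (adjusted p = 0.966), but the difference of the heme effects, 0.87, was not called (adjusted p = 0.583).

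Of 4 storage and chaperone genes measured, 1 rose in KO and 2 in WT mice, namely Ftl1 in both and the iron chaperone Pcbp1 in WT mice (0.24, adjusted p = 0.00401), which had 0.15 in KO mice (adjusted p = 0.0622). Of 3 ferroxidase genes Heph, the hephaestin of enterocytes that works with ferroportin, rose in WT mice (0.30, adjusted p = 9.285e-04) and had 0.20 in KO mice (adjusted p = 0.0129).

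The hepcidin axis and iron sensing list of 12 genes had 2 higher and 2 lower in KO mice, and 1 higher and 2 lower in WT mice. Epas1, the hypoxia-inducible factor that drives intestinal iron uptake genes, fell by 0.35 in KO and 0.29 in WT mice, and Neo1, a receptor of the bone morphogenetic protein pathway of hepcidin control, by 0.32 and 0.34. Aco1, which encodes iron regulatory protein 1, rose by 0.19 and 0.33, and Fbxl5, which marks iron regulatory protein 2 for degradation, rose by 0.31 in KO mice and had 0.20 in WT mice (adjusted p = 0.049).

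Of 8 genes of mitochondrial iron and iron-sulfur clusters, 4 rose in KO and 5 in WT mice (9.23% and 9.6% of all genes did) and none fell. Cisd1, an iron-sulfur protein of the outer mitochondrial membrane, rose by 0.29 in KO and 0.51 in WT mice. The mitochondrial transporter Abcb10 rose by 0.28 in each and the chaperone Hspa9 by 0.20 and 0.25. Glrx5, of iron-sulfur cluster assembly, rose by 0.40 in WT mice (adjusted p = 9.218e-06) and had 0.13 in KO mice (adjusted p = 0.057), with a difference of the heme effects of -0.27 (adjusted p = 0.5).

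**Figure D5:**
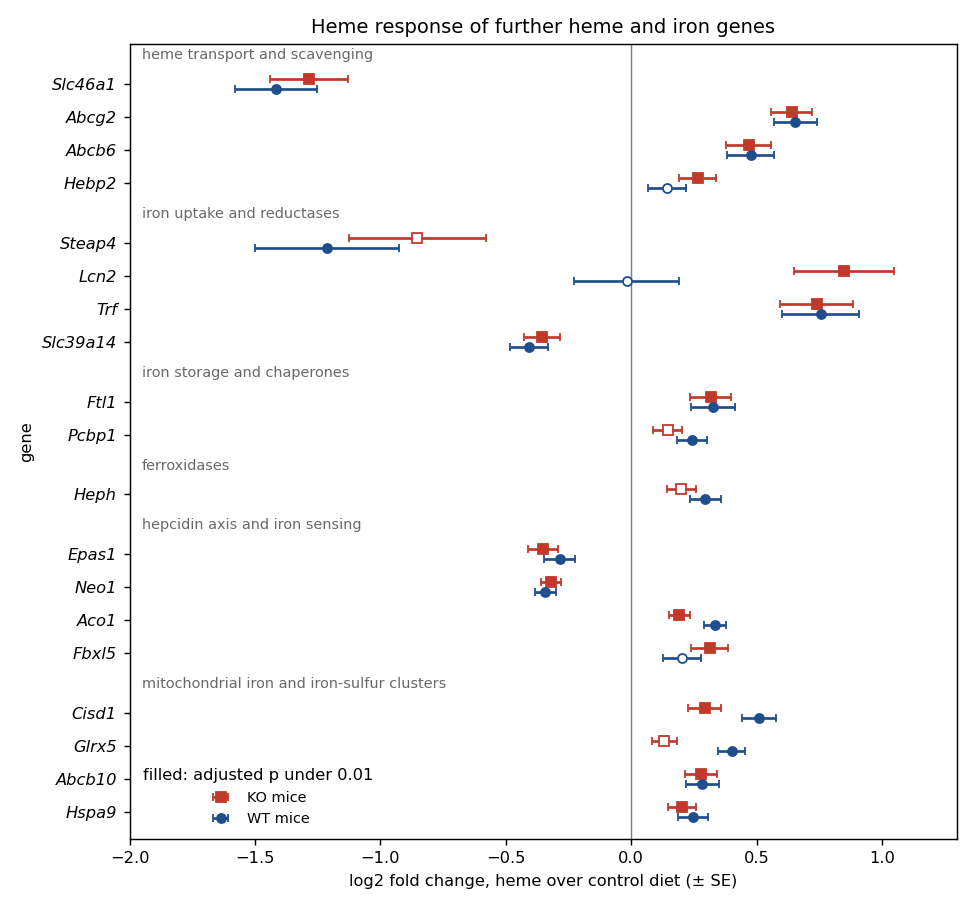
Heme effect as log2 fold change against the control diet (horizontal axis, ± SE) of named further heme and iron genes, grouped by list, in KO mice (squares) and WT mice (circles), with filled symbols where the adjusted p was under 0.01. Only genes called in at least 1 genotype are shown. Slc46a1 lies lowest at -1.28 in KO and -1.42 in WT mice. The mitochondrial genes shown lie to the right of 0, whereas of all 8 measured 6 had a positive effect in KO and 7 in WT mice.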

How the data were processed

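Messenger RNA of scraped colonic mucosa was profiled in 23 mice, 1 array each. The authors normalised the arrays with the Robust Multi-array Average method and deposited log2 expression values per probe set, which were used as given (RMA version not given in the sources used here). The methods name reorganised probe sets, whereas the identifiers are those of Affymetrix transcript clusters, so the probes behind a gene can differ from the study's. Array signals have no read depth, so precision depends on how many arrays there are. Array medians were 5.80 to 5.90, and the mean correlation with other arrays of a group was 0.990 to 0.994. The number of value columns without a matching sample was 0.

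Of 35556 probe sets 21218 carried 1 gene symbol, 1881 several and 12457 none in the platform annotation. Symbols were brought up to date through Entrez numbers with RefSeq tables (GRCm38.p6; 21185 matched), which also gave the start site windows. The brightest probe set stood for each of 1386 genes with more than 1, which left 18820 genes.

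The 4 groups were fitted together with limma 3.58.1 (R 4.3.3), with 5 contrasts and Benjamini-Hochberg adjustment over all genes, at the study's thresholds. The methods do not name the test behind the q-values. Single genes were also compared by two-sided exact permutation tests in 4 pairs of groups, for which the limma value gives the adjusted p. The fit was tested on simulated data. Named genes were all members and up to 4 called genes per list with the largest change, and the 3 genes most correlated with a member called in both genotypes. The members and lists were chosen with earlier results of these data known. Python 3.11.15 with numpy 2.4.6, scipy 1.17.1, pandas 2.3.3 and matplotlib 3.10.9 was used. Alternatives were other variance models, normalisations, filters, thresholds, probe set rules, fits of only the groups compared, array weights, smooth muscle or macrophage markers as a covariate, the replicate number as a block, and each array left out in turn.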

Additional observations from a re-analysis of the deposited data

Results flagged for a closer look

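In 40 groups of 5 or 6 mice (9 genes and the shared probe set of Cdip1 and Hmox2, in 4 groups each), a single mouse stood far from the others of its group in 4 cases, and chance alone gives about 1 in 20. Hmox1 in WT heme replicate 4 had a log2 value of 7.27, against 9.55 in the next lowest mouse of the group. Blvra in KO control replicate 4 was high at 7.37, against 7.05 in the next highest. Slc11a2 in KO heme replicate 4 was low at 7.37, against 7.56 in the next lowest. Cybrd1 in WT control replicate 3, the array lowest in the macrophage marker mean, was low at 5.03, against 5.55 in the next lowest. The 4 values came from 4 different mice, and without that mouse the heme effect was 3.85 for Hmox1 in WT mice, 0.02 for Blvra in KO mice, -0.30 for Slc11a2 in KO mice and -0.30 for Cybrd1 in WT mice.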

How the results depend on the processing

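The induction of Hmox1 was called in both genotypes under all alternatives run, with a log2 fold change of 2.93 to 3.06 in KO and 3.40 to 3.52 in WT mice, and of 2.83 to 3.14 and 3.27 to 3.85 with single arrays left out. The number of genes called of 9 in KO mice was 1 in place of 2 with arrays centred on their median and with the smooth muscle covariate, where Slc11a2 was lost, and 1 to 2 with single arrays left out. In WT mice it was 1 in place of 2 with an intensity trend, in the ordinary two-way model, with only the compared groups fitted, over all probe sets and with the smooth muscle covariate, all by the loss of Slc40a1 (adjusted p = 0.0101 to 0.0815). Repeated quantile normalisation kept 2 genes, with Blvrb in place of Slc40a1. The count ran from 1 to 5 over the alternatives, not all of which are named here. It was 4 with array weights and 5 at an adjusted p under 0.05. With single arrays left out the count was 1 to 3. It was 0 in every setting for both comparisons of genotype and for the difference of the heme effects. The cause of these shifts was not tested. Over all genes, the 44 called between KO and WT mice on heme became 17 with only the compared groups fitted, 70 with array weights and 148 at an adjusted p under 0.05, and the 10 on the control diet and the 2 for the difference of the heme effects became 16 and 4 over all probe sets. At an adjusted p under 0.05 heme changed 5235 genes in KO mice, against 3469, and 5092 in WT mice, against 3367. Centring also moved the share of higher genes among all calls to 63.1%, against 50.1% without it, in KO mice and to 61.7%, against 53.6%, in WT mice.

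Effects near 0 changed sign. These were Blvrb in KO mice with centring (0.024), Fth1 in WT mice with the smooth muscle covariate (-0.003), and the difference of the heme effects of Cybrd1 with that covariate (-0.032). For KO minus WT on the control diet they were Blvra (-0.048) and Flvcr1 (0.031) with the smooth muscle covariate, Fth1 with averaged probe sets (0.009) and Tfrc with the macrophage covariate (0.014). With single arrays left out, signs turned for the heme effect of Blvra (-0.075 to 0.016) and Blvrb (-0.045 to 0.005) in KO and Fth1 (-0.006 to 0.032) in WT mice, for KO minus WT of Slc40a1 on heme (-0.172 to 0.082), and on the control diet of Blvra (-0.044 to 0.044), Fth1 (-0.023 to 0.003), Tfrc (-0.102 to 0.019) and Cybrd1 (-0.024 to 0.139).

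Same-numbered mice hardly deviated together (mean r = 0.042 over 33 pairs, 11 of them over 0.1, and 4 of 23 arrays closest to their own number). Differently numbered mice had a mean r of -0.008 over 165 pairs, 38 of them over 0.1. The numbers were taken as names of mice only, and whether same-numbered mice shared a step of handling cannot be told from these values. With the replicate number as a block 2 of the 9 genes were called in KO and 3 in WT mice, the added gene being Flvcr1 (0.275, adjusted p = 0.00112), and the heme effect of Fth1 in WT mice was -0.002.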
